A study of Homo sapiens with 6 samples.

Results

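The genes described here encode the enzymes that place palmitate or an isoprenoid lipid on proteins, trim the lipid-bearing end or take palmitate off again. They were chosen by name among the genes marked as protein coding: every gene whose symbol starts with ZDHHC and a number, together with 18 named genes (FNTA, FNTB, PGGT1B, RABGGTA, RABGGTB, LYPLA1, LYPLA2, ABHD17A, ABHD17B, ABHD17C, PPT1, PPT2, ICMT, RCE1, ZMPSTE24, HHAT, PORCN and GOLGA7). The rule uses no measured value, although it was written with earlier results of these data known. This gave 39 of the 21776 genes in the count table: 21 ZDHHC S-acyltransferases, their accessory protein GOLGA7, 7 thioesterases, 5 prenyltransferase subunits, 3 enzymes that process the prenylated CAAX end and 2 acyltransferases of the MBOAT family. ZDHHC15, ZDHHC19 and ZDHHC22 were not analysed here.

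Lipidation holds otherwise soluble proteins at membranes. ZDHHC enzymes sit in the Golgi, the endoplasmic reticulum and the plasma membrane and transfer palmitate from palmitoyl-CoA to cysteines, and thioesterases reverse this, so that palmitoylated proteins cycle between membranes. Prenylation is permanent: farnesyl or geranylgeranyl groups are added to a cysteine near the C-terminus of small GTPases such as Ras and Rab proteins and of nuclear lamins, after which RCE1 or ZMPSTE24 can remove the last residues and ICMT methylates the new end. HHAT and PORCN act on secreted signals instead, HHAT by palmitoylating Hedgehog proteins and PORCN by adding palmitoleate to Wnt proteins.

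RNA sequencing compared SCC25 cells, an established line from a human oral squamous cell carcinoma labelled as wild type, under hypoxia and normoxia, both for 12 h and with 3 libraries each. Hypoxia meant 1% O2 and 5% CO2 with the balance N2, and normoxia meant 5% CO2 in 95% air. The labels name SCC25, whereas the study's text names SCC9 beside its pathway analysis of these data, and nothing states whether the libraries came from separate cultures, so that p-values measure the spread between these libraries, which may be technical. Reads counted on genes totalled 30186813, 36076088 and 32272716 for the hypoxia libraries (replicates 1, 2 and 3) and 37278703, 29637189 and 29981208 for the normoxia libraries.

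The libraries followed their labels, since all 15 genes of a list of hypoxia response genes were higher under hypoxia without overlap between the conditions. The epithelial genes CDH1, EPCAM, KRT5, TP63 and SFN were all present, and the 8 squamous markers summed to 1061, 1028 and 1048 CPM (counts scaled to the library size) under hypoxia and 906.7, 917.6 and 960.5 CPM under normoxia, with CDH1 the most abundant. Of the 7 tested squamous markers, 2 were higher and 4 lower. CDH1 rose (log2-fold change = 1.35), whereas KRT6A, a keratin of stressed epithelium, fell from 695, 537 and 356 counts under normoxia to 18, 28 and 49 counts under hypoxia (log2-fold change = -4.12), and SFN (-0.80) and EPCAM (-0.35) also fell. KRT14, a basal keratin, had at most 1 count in any library. Of the 4 leukocyte markers, PTPRC and CD3E had 3 or fewer counts in every library, and the list summed to between 32.9 and 39.6 CPM, mostly CD68. CD14 rose from 32, 21 and 48 counts under normoxia to 193, 203 and 185 counts under hypoxia (log2-fold change = 2.45, edgeR adjusted p = 7.27e-08). The 4 fibroblast markers summed to 21.2, 18.4 and 16.8 CPM under hypoxia and 4.004, 3.11 and 5.58 CPM under normoxia, mostly COL1A1, while DCN had at most 4 counts. The 3 endothelial markers summed to at most 1.39 CPM. The part of these shifts in the results below was not tested. Normoxia replicate 3 was the normoxia library nearest to hypoxia in 20 of the 28 enzyme genes that passed the test. Without it, 7 of the enzyme genes were higher and 24 lower, against 6 and 22 with it.

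More of the enzyme genes were lower than higher under hypoxia, and the lowest log2-fold changes belonged to ZMPSTE24 in CAAX processing and RABGGTB in Rab prenylation. Of the 39 genes, 38 passed the filter on low counts, and 22 of these fell, 6 rose and 10 did not pass the test (edgeR's quasi-likelihood test, adjusted p under 0.05). The comparison moved most of the transcriptome, with 77.8% of the 14255 genes tested passing in either direction, 39.2% higher and 38.5% lower, so the number of enzyme genes that passed (28) is close to this background. Their median log2-fold change was -0.30, against 0.02 over all tested genes, whose quartiles were -0.54 and 0.76. The libraries of the conditions did not overlap for 31 enzyme genes, 7 of them higher and 24 lower, where 80.5% of all tested genes did not overlap (40.6% higher and 39.9% lower). ZMPSTE24, RABGGTB and ZDHHC18 had a log2-fold change below -1, which 10.5% of all tested genes had, and no enzyme gene rose by more than 1. Of all tested genes, 30.4% passed with a change beyond 1 in either direction, against these 3 of 38. In cultured cells measured in bulk, fewer cells with a transcript and less of it per cell cannot be told apart.

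**Figure D1:**
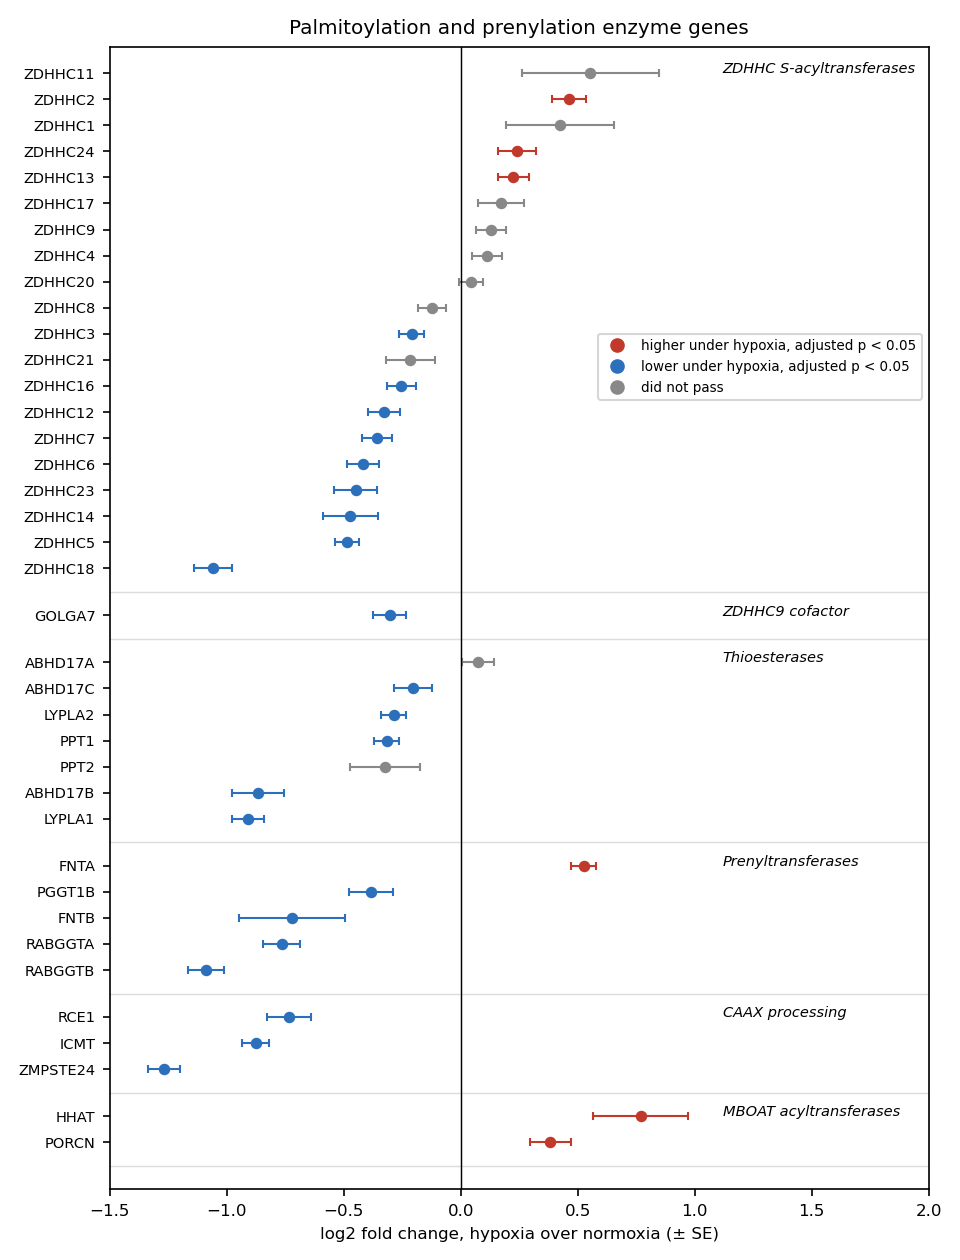
Log2-fold change (hypoxia over normoxia) with its standard error for the 38 tested enzyme genes, grouped by role, from 3 libraries per condition. Red points passed the test higher, blue points lower and grey points did not pass. All 3 CAAX-processing genes lie left of 0, from -1.27 to -0.73, and both MBOAT genes lie right of it.

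All 3 genes for the enzymes that finish the prenylated end were lower without overlap, beside 38.5% of all tested genes lower and 39.9% lower without overlap. ZMPSTE24 (Entrez gene 10269), the zinc protease that also matures prelamin A, was at 37.5, 38.4 and 38.2 CPM under hypoxia and at 96.5, 96.7 and 81.9 CPM under normoxia. Every hypoxia library was thus below every normoxia library, and ZMPSTE24 fell by 58.5% (log2-fold change = -1.27, SE 0.068, edgeR adjusted p = 1.91e-11). ICMT (Entrez gene 23463), the methyltransferase for the new C-terminal cysteine, was at 58.2, 53.1 and 57.2 CPM under hypoxia against 105.3, 106.0 and 97.8 CPM under normoxia. The ICMT libraries did not overlap either, and the gene fell by 45.5% (log2-fold change = -0.88, SE 0.059, edgeR adjusted p = 3.18e-10). RCE1 (Entrez gene 9986), the protease for Ras proteins, was at 18.8, 16.5 and 15.9 CPM under hypoxia against 29.7, 30.3 and 24.98 CPM. RCE1 fell by 39.8% (log2-fold change = -0.73, SE 0.095, edgeR adjusted p = 1.74e-06). It shares 381 exonic bases with C11orf80 on the same strand, which had a log2-fold change of 0.33. In FPKM, which divides by gene length, the 3 genes together made up 36.6 ± 1.16 under hypoxia and 70.2 ± 5.57 under normoxia (SD, n = 3), a ratio of 0.521.

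Of the 5 prenyltransferase subunits, 4 were lower and FNTA was higher, beside 38.5% and 39.2% of all tested genes. RABGGTB (Entrez gene 5876), the beta subunit of the enzyme that adds geranylgeranyl groups to Rab proteins, was at 43.6, 37.8 and 39.0 CPM under hypoxia and at 86.8, 93.2 and 75.8 CPM under normoxia. It fell by 53.0% with no overlap (log2-fold change = -1.09, SE 0.076, edgeR adjusted p = 5.88e-10). Its partner RABGGTA (Entrez gene 5875) was at 21.4, 21.4 and 20.4 CPM under hypoxia against 36.0, 38.8 and 32.6 CPM, and it fell by 41.2% (log2-fold change = -0.76, SE 0.079, edgeR adjusted p = 1.01e-07). Both subunits of the Rab enzyme were therefore lower in all hypoxia libraries. RABGGTB shares 157 exonic bases with ACADM on the same strand (log2-fold change -0.36).

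FNTA (Entrez gene 2339), the alpha subunit that pairs with either FNTB or PGGT1B, was the exception in this group. It was at 80.0, 79.3 and 76.5 CPM under hypoxia and at 55.4, 55.04 and 53.4 CPM under normoxia, a rise of 43.9% (log2-fold change = 0.52, SE 0.055, edgeR adjusted p = 1.2e-07). The beta subunits, which select the lipid, were lower instead. PGGT1B, the geranylgeranyl subunit, was at 15.9, 17.3 and 13.8 CPM under hypoxia against 20.9, 19.9 and 20.6 CPM (log2-fold change = -0.38, SE 0.095, edgeR adjusted p = 0.00146). FNTB, the farnesyl subunit, was at 2.00, 1.86 and 2.25 CPM against 3.76, 3.81 and 2.47 CPM (log2-fold change = -0.72, SE 0.227, edgeR adjusted p = 0.00798). FNTB rested on 61 to 140 counts per library, and normoxia replicate 3 lay close to the hypoxia libraries. Over the fits that left out 1 library each, its log2-fold change ran from -0.91 to -0.63. In GENCODE v29, 1661 of the 3948 exonic bases of FNTB also belong to the readthrough gene CHURC1-FNTB, and how the authors assigned reads there is not known.

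The ratio between subunits shifted accordingly. On the FPKM scale, FNTA exceeded FNTB by 65.1, 69.5 and 55.3 times in hypoxia replicates 1 to 3 and by 23.9, 23.5 and 35.2 times in normoxia replicates 1 to 3. FNTA exceeded PGGT1B by 40.4 ± 3.75 times under hypoxia and 21.4 ± 0.703 times under normoxia (SD, n = 3). The size of such an excess depends on the lengths behind the FPKM, though its shift between conditions does not. Counts and FPKM imply 1667 bases for FNTA and 13329 for PGGT1B, where GENCODE v29 gives 9551 and 10064 exonic bases. Mean CPM, without length, were 78.6 for FNTA and 15.7 for PGGT1B under hypoxia, and 54.6 and 20.5 under normoxia. For the Rab enzyme, RABGGTB over RABGGTA was 3.02 ± 0.211 under hypoxia and 3.77 ± 0.0786 under normoxia. None of these 3 ratios overlapped between the conditions. With 3 libraries per condition an exact permutation test of a single ratio cannot give a two-sided p below 0.1, so no test is given.

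**Figure D2:**
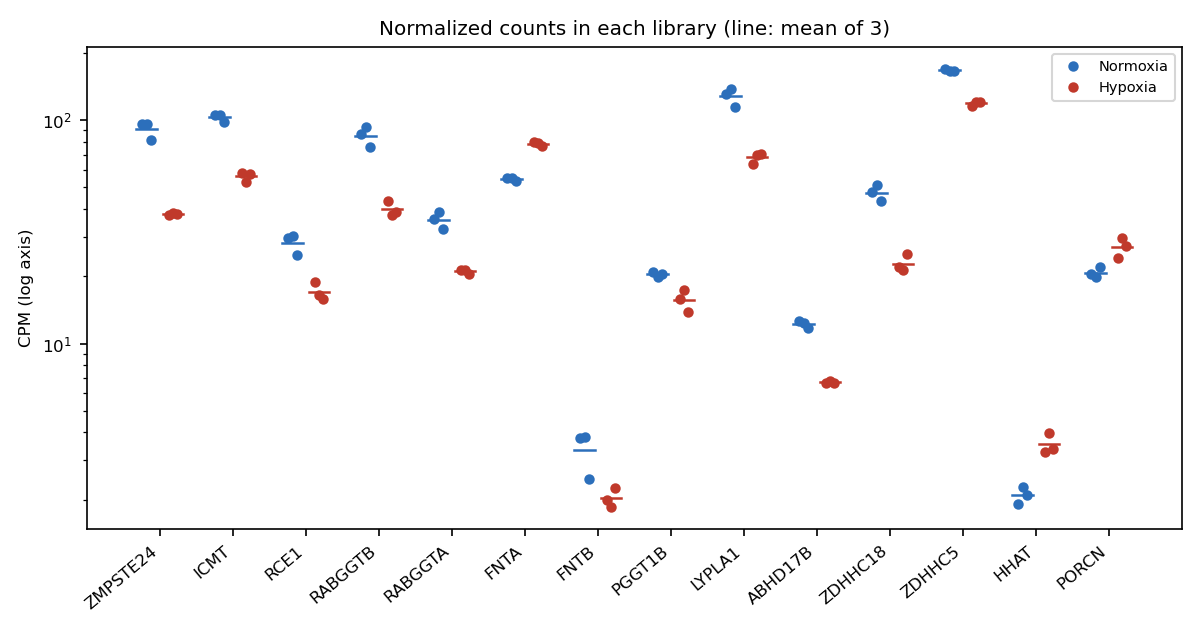
Normalized counts (CPM, log axis) of 14 enzyme genes in each library, with normoxia in blue, hypoxia in red and a line at the mean of 3 libraries. ZMPSTE24, ICMT, RCE1, RABGGTB and LYPLA1 separate downward, FNTA, HHAT and PORCN separate upward, and the normoxia replicate of FNTB at 2.47 CPM lies next to the hypoxia libraries.

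The genes for removal of palmitate were lower or did not pass the test, with 5 of 7 thioesterases lower, 0 higher and a median log2-fold change of -0.32. Passing in itself was common, with 38.5% of all tested genes lower and 77.8% passing in either direction. LYPLA1 (Entrez gene 10434), the acyl-protein thioesterase APT1, was at 63.9, 69.9 and 70.9 CPM under hypoxia and at 131.3, 138.6 and 114.5 CPM under normoxia. It fell by 46.7% (log2-fold change = -0.91, SE 0.069, edgeR adjusted p = 1.64e-09). ABHD17B, which depalmitoylates N-Ras and PSD-95, was at 6.68, 6.78 and 6.69 CPM under hypoxia against 12.6, 12.4 and 11.7 CPM (log2-fold change = -0.87, SE 0.112, edgeR adjusted p = 1.68e-06). The libraries of these genes did not overlap between the conditions, and their hypoxia values lay close together. Their paralogs moved less: LYPLA2 had a log2-fold change of -0.29, ABHD17C of -0.20 and ABHD17A of 0.07, the last with overlapping libraries (edgeR adjusted p = 0.33). ABHD17C passed narrowly (edgeR adjusted p = 0.0281) and lost its call without hypoxia replicate 2, without hypoxia replicate 3 and without normoxia replicate 3, with an adjusted p of up to 0.0843. The lysosomal PPT1 fell by 19.8% (log2-fold change = -0.32, edgeR adjusted p = 3.52e-05), and the related PPT2 had a similar value that did not pass (log2-fold change = -0.33, edgeR adjusted p = 0.0568). PPT1 shares 1189 exonic bases on the opposite strand with CAP1, which was at 347.8 CPM under hypoxia and 380.7 CPM under normoxia (log2-fold change -0.13). The share of CAP1 reads in the PPT1 count was not tested. PPT2 shares 1449 exonic bases with the readthrough PPT2-EGFL8. Without normoxia replicate 3, PPT2 passed (log2-fold change = -0.43, edgeR adjusted p = 0.0153).

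These unequal changes altered the balance within the thioesterases. In FPKM, LYPLA1 over LYPLA2 was 1.23 ± 0.132 under normoxia and 0.796 ± 0.034 under hypoxia (SD, n = 3), so that LYPLA1 was above LYPLA2 in every normoxia library and below it in every hypoxia library. ABHD17A over ABHD17B was 2.73 ± 0.311 under normoxia and 5.22 ± 0.237 under hypoxia. PPT1 kept the highest level of the 7 genes, at 62.4 ± 1.72 FPKM under normoxia and 51.7 ± 1.49 FPKM under hypoxia.

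**Figure D3:**
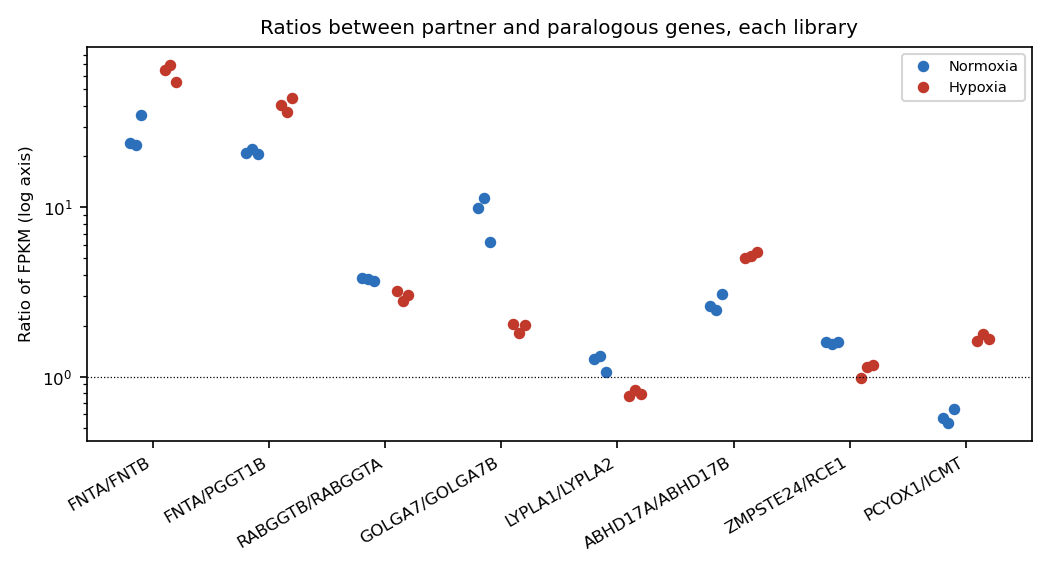
Ratio of FPKM between partner or paralogous genes in each library (log axis, dotted line at 1), with normoxia in blue and hypoxia in red. The points of the conditions are apart for all 8 ratios, and LYPLA1/LYPLA2 and PCYOX1/ICMT cross 1.

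The ZDHHC family, which adds palmitate, moved in both directions. Of its 20 tested genes 9 were lower, 3 higher and 8 did not pass, with a median log2-fold change of -0.17. The share lower is near the 38.5% of all tested genes, and 39.2% of all tested genes were higher. The number higher depended on the filter. When at least 10 counts were required in every library, ZDHHC4, ZDHHC9, ZDHHC11, ZDHHC17 and ZDHHC20 also passed as higher. ZDHHC18 (Entrez gene 84243), a Golgi enzyme reported to act on H-Ras and N-Ras, was at 21.9, 21.4 and 25.1 CPM under hypoxia and at 47.8, 51.2 and 43.4 CPM under normoxia. It fell by 52.0% without overlap (log2-fold change = -1.06, SE 0.081, edgeR adjusted p = 1.9e-09). ZDHHC5 (Entrez gene 25921), a plasma membrane enzyme, was at 116.2, 120.6 and 121.1 CPM under hypoxia against 169.8, 166.2 and 165.4 CPM (log2-fold change = -0.49, SE 0.050, edgeR adjusted p = 1.08e-07). Of the tested family members ZDHHC18 had the lowest log2-fold change, and the other genes that fell (ZDHHC14, ZDHHC23, ZDHHC6, ZDHHC7, ZDHHC12, ZDHHC16 and ZDHHC3) had log2-fold changes between -0.47 and -0.21. ZDHHC3 palmitoylates PD-L1, the protein of CD274, and was at 103.6, 92.9 and 101.3 CPM under hypoxia against 114.4, 114.2 and 115.9 CPM (log2-fold change = -0.21, SE 0.055, edgeR adjusted p = 0.00228).

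The 3 ZDHHC genes that rose did so by less than 1 log2 unit. ZDHHC2, whose product acts at the plasma membrane and on recycling endosomes, was at 38.02, 39.04 and 37.8 CPM under hypoxia against 28.7, 25.2 and 29.3 CPM under normoxia. This was a rise of 37.9% (log2-fold change = 0.46, SE 0.073, edgeR adjusted p = 1.67e-05). ZDHHC13, an ankyrin-repeat member, had a log2-fold change of 0.22 (edgeR adjusted p = 0.00536) and ZDHHC24 of 0.24 (edgeR adjusted p = 0.0107). ZDHHC24 shares 759 exonic bases on the opposite strand with BBS1, which was at 22.6 CPM under hypoxia and 13.9 CPM under normoxia. Since it is not known whether the counting used the strand, the share of BBS1 reads in the ZDHHC24 count was not tested.

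For ZDHHC9, the Ras palmitoyltransferase that needs GOLGA7 as a cofactor, the libraries overlapped (log2-fold change = 0.13, edgeR adjusted p = 0.0741). Without normoxia replicate 2, ZDHHC9 passed (log2-fold change = 0.17, edgeR adjusted p = 0.0408). Without normoxia replicate 3, its log2-fold change was 0.06 (edgeR adjusted p = 0.372). GOLGA7 itself was at 25.7, 25.3 and 25.6 CPM under hypoxia and at 32.1, 31.8 and 30.7 CPM under normoxia, and it fell by 19.0% (log2-fold change = -0.30, SE 0.070, edgeR adjusted p = 0.000744). Its paralog GOLGA7B, which binds ZDHHC5, went the other way, at 37.6, 41.7 and 38.1 CPM against 9.70, 8.46 and 14.9 CPM (log2-fold change = 1.83, SE 0.138, edgeR adjusted p = 1.61e-09). In FPKM, GOLGA7 over GOLGA7B was 9.15 ± 2.63 under normoxia and 1.97 ± 0.127 under hypoxia (SD, n = 3). SELENOK, a cofactor of ZDHHC6, had a log2-fold change of -0.62 beside -0.42 for ZDHHC6.

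The other tested family members were ZDHHC1, ZDHHC4, ZDHHC8, ZDHHC11, ZDHHC17, ZDHHC20 and ZDHHC21. None of them passed, with log2-fold changes from -0.22 for ZDHHC21 to 0.55 for ZDHHC11. ZDHHC11 was at 0.887 to 1.86 CPM in all libraries, and ZDHHC11B, a near-identical copy, had 7, 4 and 6 counts under hypoxia and 5, 3 and 6 counts under normoxia and was not tested. Reads may be split between these copies. ZDHHC11 also shares 222 exonic bases on the same strand with BRD9, which was at 49.4 CPM under hypoxia and 87.5 CPM under normoxia. The share of BRD9 reads in the ZDHHC11 count was not tested. With 1 library left out, ZDHHC21 passed as lower without hypoxia replicate 2 and without normoxia replicate 1 or 3, ZDHHC8 passed as lower and ZDHHC1 as higher without normoxia replicate 3, and ZDHHC4 passed as higher without hypoxia replicate 2.

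Per gene length, few enzymes made up much of the family, in an order that depends on the lengths behind the FPKM. Counts and FPKM imply 1354 bases for ZDHHC12, with 2597 exonic bases in GENCODE v29, and 12888 for ZDHHC3. In mean CPM under normoxia, ZDHHC5 (167.1), ZDHHC20 (115.4) and ZDHHC3 (114.8) were highest, and ZDHHC12 was at 35.9. In FPKM, ZDHHC5 (34.2 ± 0.958), ZDHHC4 (28.5 ± 0.636), ZDHHC16 (26.5 ± 0.430) and ZDHHC12 (26.1 ± 0.741) were the highest under normoxia (SD, n = 3). They held 49.6% of the summed FPKM of the family. The levels of ZDHHC16 and ZDHHC12 did not differ beyond their spread. Under hypoxia these 4 genes held 47.8%, and ZDHHC4 (31.8 ± 2.26 FPKM) stood above ZDHHC5 (25.2 ± 0.717 FPKM). ZDHHC18 moved from position 10 to position 12 of the 21 genes. The summed FPKM of the family was 232.5 ± 4.55 under normoxia and 212.3 ± 1.59 under hypoxia, a ratio of 0.913. The same ratio was 0.77 for the thioesterases and 0.808 for the prenyltransferases, in FPKM scaled by the total count of each library.

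The acyltransferases for secreted signals were both higher, as were 39.2% of all tested genes. HHAT (Entrez gene 55733) was at 3.28, 3.98 and 3.39 CPM under hypoxia and at 1.91, 2.27 and 2.10 CPM under normoxia, resting on 62 to 148 counts per library. It rose by 70.3% without overlap (log2-fold change = 0.77, SE 0.204, edgeR adjusted p = 0.0024). PORCN (Entrez gene 64840) was at 24.2, 29.8 and 27.3 CPM under hypoxia against 20.5, 19.9 and 22.0 CPM (log2-fold change = 0.38, SE 0.088, edgeR adjusted p = 0.000792). NOTUM, the extracellular enzyme that removes the lipid placed by PORCN, passed with a log2-fold change of 1.44, at a mean log2 CPM below 1.

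By the cell compartments that the deposited annotation gives, the genes that fell were spread over membranes and cytosol. Of 17 genes annotated to the Golgi membrane, 15 of them ZDHHC genes, 7 were lower and 3 higher, with a median log2-fold change of -0.12. Of 15 annotated to the endoplasmic reticulum membrane, 7 were lower and 3 higher (median 0.04), and of 13 annotated to the plasma membrane 7 were lower and 2 higher (median -0.22). Of 10 annotated to the cytosol, where the prenyltransferases and LYPLA proteins act, 7 were lower and FNTA was the only gene higher, with a median log2-fold change of -0.52. Over all tested genes 38.5% were lower and 39.2% higher, and a gene may be counted in several compartments.

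Transcripts from the pathways that make, bind or use the lipid donors were taken as separate lists and were mostly higher, and the lipids themselves were not measured. Of 10 genes of isoprenoid synthesis, 9 were higher and PMVK was lower, with a median log2-fold change of 0.68, beside 39.2% higher and a median of 0.02 over all tested genes. PMVK changed little (log2-fold change = -0.20, edgeR adjusted p = 0.0254) and did not pass without hypoxia replicate 2 or 3 or without normoxia replicate 1 or 3. FDPS, which makes farnesyl diphosphate, was at 672.0, 543.9 and 613.2 CPM under hypoxia against 261.7, 253.3 and 312.2 CPM under normoxia (log2-fold change = 1.14, SE 0.079, edgeR adjusted p = 5.29e-10). MVD, which makes isopentenyl diphosphate, had a log2-fold change of 1.44. FDFT1, which draws farnesyl diphosphate into sterols but is counted among the 9 higher genes, had a log2-fold change of 1.05. GGPS1, which extends the FDPS product to the lipid that RABGGTA and RABGGTB transfer, had a log2-fold change of 0.24. FDPS over RABGGTB in FPKM was 12.9 ± 0.601 under hypoxia and 2.80 ± 0.630 under normoxia (SD, n = 3). PCYOX1 and PCYOX1L, of which PCYOX1 degrades prenylcysteine, had log2-fold changes of 0.66 and 0.91, and PCYOX1 over ICMT in FPKM was 1.69 ± 0.0855 under hypoxia against 0.583 ± 0.0571.

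All 9 tested genes of the list for palmitoyl-CoA supply were higher, with a median log2-fold change of 0.53. ACACB, an acetyl-CoA carboxylase, was at 3.57, 4.49 and 3.91 CPM under hypoxia against 0.967, 1.33 and 1.35 CPM (log2-fold change = 1.73, SE 0.230, edgeR adjusted p = 2.36e-06). The other carboxylase gene of the list, ACACA, was far more abundant, at a mean of 338.8 CPM under hypoxia and 236.6 CPM under normoxia. Its log2-fold change was 0.52. The acyl-CoA synthetases ACSL3 and ACSL1 had log2-fold changes of 1.02 and 0.93. These values stand beside a background of 39.2% of all tested genes higher.

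Among proteins that receive a prenyl group, 15 of 22 were lower, 3 higher and 4 did not pass, with a median log2-fold change of -0.37, beside 38.5% lower and 39.2% higher over all tested genes. LMNB1, the lamin B1 gene, was at 103.7, 95.4 and 106.0 CPM under hypoxia against 241.3, 241.7 and 222.5 CPM (log2-fold change = -1.21, SE 0.058, edgeR adjusted p = 4.61e-12). CENPE, a kinetochore motor, and PTP4A1, a phosphatase, each had a log2-fold change of -0.90. Among the genes that rose were RRAS (1.47) and PTP4A2 (0.24), whereas the HRAS and NRAS genes fell (-0.53 and -0.59). Of 9 genes for proteins that carry prenylated GTPases, 3 were lower and 2 higher. ARHGDIA, which extracts prenylated GTPases from membranes, was at 213.6, 193.4 and 208.1 CPM against 522.4, 542.9 and 493.8 CPM (log2-fold change = -1.34, SE 0.056, edgeR adjusted p = 9.6e-13). RABAC1, a Rab acceptor, had a log2-fold change of 0.89, GDI2 of -0.32, RAP1GDS1 of -0.19 and ARL3 of 0.24, the last with overlapping libraries. RAP1GDS1 and ARL3 lost their calls when hypoxia replicate 2 was left out, and likewise for normoxia replicates 1 and 2, and ARL3 also lost its call without hypoxia replicate 3.

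Among proteins that receive palmitate, 13 of 22 were higher, 5 lower and 4 did not pass, with a median log2-fold change of 0.29, beside 39.2% higher and 38.5% lower over all tested genes. ITGB4, the integrin beta 4 of hemidesmosomes, was at 1124, 1279 and 1182 CPM under hypoxia against 268.2, 277.8 and 356.6 CPM (log2-fold change = 1.99, SE 0.086, edgeR adjusted p = 1.5e-12). FYN, a Src-family kinase, and CD9, a tetraspanin, had log2-fold changes of 0.95 and 0.79. ITGA6, the integrin partner of ITGB4, fell (log2-fold change = -0.68), as did CD44 (-0.49) and CD274 (-0.91). CD274 was at 12.4, 13.2 and 13.4 CPM under hypoxia against 25.6, 26.7 and 20.99 CPM under normoxia, beside log2-fold changes of -0.21 for ZDHHC3 and 0.13 for ZDHHC9 (which did not pass), both described as PD-L1 palmitoyltransferases. The N-myristoyltransferase genes NMT1 and NMT2, from a separate lipidation pathway, had log2-fold changes of -0.61 and -0.43 on the counts. The deposited FPKM of NMT1 equal those of EGLN3 in all 6 libraries, so the counts were used for these values.

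**Figure D4:**
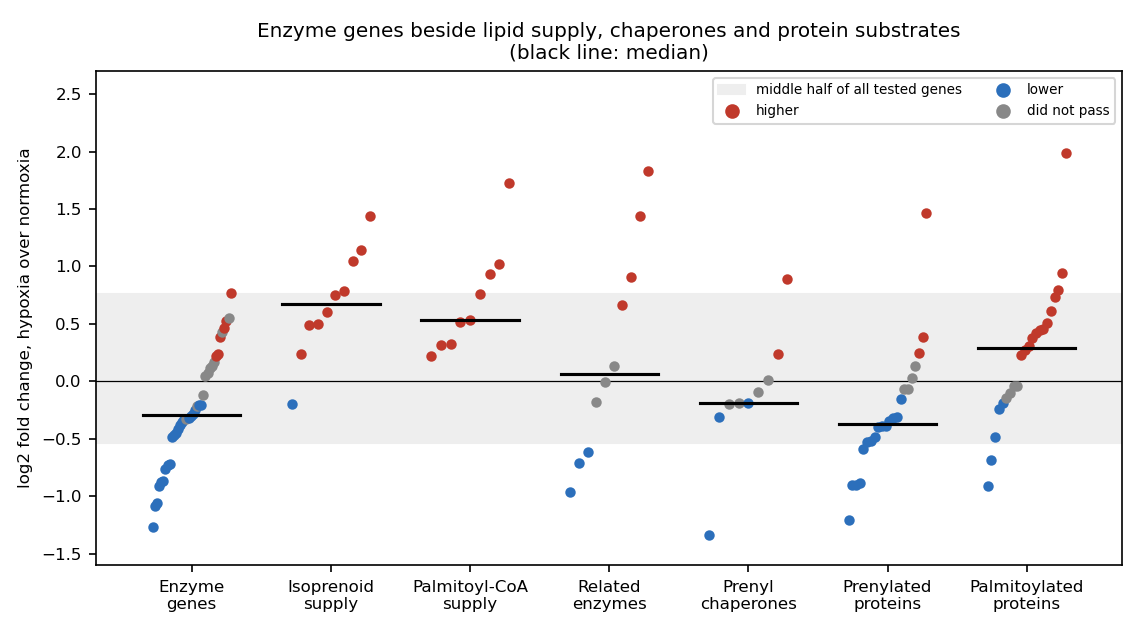
Log2-fold change (hypoxia over normoxia) of each tested gene in the enzyme group and in 6 related lists, with a black line at each median and a grey band from the lower to the upper quartile of all tested genes (-0.54 to 0.76). The medians run from -0.37 for prenylated proteins and -0.30 for the enzyme genes to 0.68 for isoprenoid supply.

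Promoter sequence was searched for ACGTG, the core that hypoxia-inducible factors bind, on either strand within 250 bases before the start of each transcript in RefSeq (GRCh38.p14). The letters are also part of CACGTG, a motif of other factors, which counts on both strands. A promoter was matched for 31 of the 39 enzyme genes, and 8 of them (25.8%) held the letters, against 28.2% of 11412 tested genes with a promoter. A gene can have several transcripts, and by window the share was 27.5% of 40 for the enzyme genes, 22.1% for tested genes and 18.5% of all 35116. Among the enzyme genes that passed the test, a promoter was matched for 2 of the 6 higher and 19 of the 22 lower genes. Of these, 1 of 2 higher and 4 of 19 lower genes held the letters. No CAAX-processing gene was among them, although a gene without a matched promoter could not be searched. The 5 genes are given as windows of 30 bases, 5′ to 3′ on the strand of the gene, with the motif in capitals, because they include both HHAT, which rose, and genes that fell. The positions are chr1:210328194-210328223 (plus strand) for HHAT, chr3:44976236-44976265 (minus strand) for ZDHHC3, chr11:57667924-57667953 (plus strand) for ZDHHC5, chr10:97446054-97446083 (plus strand) for ZDHHC16 and chr3:113947852-113947881 (plus strand) for ZDHHC23, all upstream of a transcript start.
HHAT: tttaatgagagcCACGTGattctgctgaga
ZDHHC3: ccccacgagccgCACGTcatctgcgcgcgt
ZDHHC5: tgaatgagacaaACGTGcgccgcgcgagac
ZDHHC16: tccgcagtaagaCACGTGtcaattggtact
ZDHHC23: aggcgggcggcgCACGTGcggacaggcggg
HHAT, ZDHHC16 and ZDHHC23 carry the full CACGTG, and ZDHHC3 and ZDHHC5 carry the shorter core. The letters occurred in genes that rose, fell and did not pass (3 of 9), at a share near that of all tested genes. A match is a description of the sequence and no binding was measured.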

How the data were processed

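SCC25 RNA was sequenced in 6 libraries, 3 under hypoxia and 3 under normoxia, grouped by their labels. The authors deposited whole-number counts of reads per gene, without normalization, and FPKM (counts divided by gene length and library total). The deposited FPKM of the enzyme genes were recomputed from the counts to within 2.1e-06%. Per the labels, RNA was extracted with an RNeasy kit and libraries were made with a SMARTER mRNA kit. The submitters' processing notes name the mouse builds GRCm38 and mm10, although the genes carry human symbols and Entrez numbers. The aligner, counter, annotation and strand setting are not given in the sources used here, so reads of overlapping genes cannot be told apart.

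The quasi-likelihood F test of edgeR 4.0.16 (R 4.3.3) was applied to the counts with hypoxia or normoxia as the factor, TMM scaling and filterByExpr, and p-values were adjusted by Benjamini-Hochberg over 14255 genes (threshold 0.05). Standard errors were derived from the log2-fold change and F. CPM use TMM-adjusted totals, and FPKM served for levels between genes, which therefore depend on the gene lengths behind the deposited FPKM. The biological coefficient of variation was 0.0685, and 3 counts correspond to 0.0806 to 0.105 CPM, a limit that covers counting error only. Replicates differed by more than sampling noise (chi-square per gene of 5.11 to 10.8), so each library was counted once. Exon overlaps came from GENCODE v29, and promoters from RefSeq (GRCh38.p14).

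The enzyme genes and lists were chosen with earlier results of these data known. All enzyme genes could be named, with values in every library for the largest changes of each class. From each related list, the 3 largest increases and decreases that passed, with a mean log2 CPM of at least 1, were named, plus CD274, NMT1 and NMT2; 1 gene that this rule selects is not reported here. NOTUM, HRAS, NRAS, GGPS1, ACACA and the overlapping genes were named after their values were seen. Alternatives were DESeq2 1.42.0 and its size factors, other filters, a replicate block, each library left out, a minimum log2-fold change of 1 in size, and limma 3.58.1 on log2(FPKM + 1) or log2(FPKM + 0.1).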

Additional observations from a re-analysis of the deposited data

How the results depend on the processing

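The number of genes that passed was between 8851 and 11920 under other normalizations, tests, filters and inputs, and between 10669 and 11390 when 1 library was left out, against 11090. When a log2-fold change beyond 1 in size was also required, 4338 genes passed, and 0 enzyme genes were higher and 3 lower. When only genes with at least 10 counts in every library were kept, 11 enzyme genes were higher and 21 lower, because ZDHHC4, ZDHHC9, ZDHHC11, ZDHHC17 and ZDHHC20 were then also called, and the median of all genes shifted by 0.08. Otherwise 5 to 8 enzyme genes were higher and 19 to 25 lower, and 6 to 7 and 21 to 24 with 1 library left out. No enzyme gene that passed changed direction: of 298 values under other settings 274 kept direction and call, 8 lost and 16 gained the call, and of 228 with a library left out 217 kept both, 3 lost and 8 gained it. ABHD17C, ZDHHC24 (adjusted p = 0.0594 without a filter, edgeR), PGGT1B and ZDHHC14 lost the call under some setting. Outside the enzyme genes, the log2 fold change of NMT1 reversed on the deposited FPKM, to 6.30 with a pseudocount of 1, 6.79 with 0.1 and 6.30 with no filter, since those FPKM equal the values of EGLN3. Deviations from the mean of the condition were little correlated between samples of the same number (0.0175, -0.069 and 0.00122). With 3 libraries per condition, this cannot decide whether samples of the same number shared a day or culture. With the replicate number as a block, 10875 genes passed, with 6 enzyme genes higher and 22 lower. Genes at few counts (ZDHHC11, ZDHHC1, FNTB and HHAT) carry the widest standard errors of the enzyme genes (0.294, 0.231, 0.227 and 0.204), which limits the changes detectable at this depth.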
